A study of Mus musculus with 16 samples.

Results

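Transforming growth factor beta (TGF-beta) genes were followed as a set of 10 members, the ligands *Tgfb1*, *Tgfb2* and *Tgfb3*, the receptors *Tgfbr1*, *Tgfbr2* and *Tgfbr3*, and the latent TGF-beta binding proteins *Ltbp1*, *Ltbp2*, *Ltbp3* and *Ltbp4*. They were matched by gene symbol, and all 10 were among the 17721 genes of the count table. Single fragments of pubertal mouse mammary gland, namely 4 nipples, 6 ducts and 6 terminal end buds (TEBs, the growing tips of the ducts), had each been turned into single cells and sequenced from the 3' ends of their transcripts, with unique molecular identifiers (UMIs) counted. The labels give the strain as C57BL/6. The donors of these libraries are described as Krt14-Cre/Rosa26-mTmG mice aged 5 weeks, in which Cre under the keratin 14 promoter switches a membrane reporter, although the dissection methods also name wild-type C57BL/6 mice and ages up to 6 weeks, and no treatment is named for any fragment. The labels do not name the mouse of each fragment, so fragments may share an animal, and the p-values below measure the spread between fragments only.

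TGF-beta is secreted in a latent form, folded together with its own propeptide and usually bound to an LTBP, which anchors the complex to fibrillin microfibrils of the extracellular matrix. Once the ligand is released, it binds the type II receptor, encoded by *Tgfbr2*, which recruits and phosphorylates the type I receptor, encoded by *Tgfbr1*, and SMAD proteins then carry the signal to the nucleus. In the mammary gland the pathway is known for restraining ductal growth.

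The 16 fragments held 1856141 to 5233122 UMIs each, over all 83 to 93 deposited cells and with spike-ins counted. After the cell filter 67 to 88 cells per fragment remained. Of 1318 cells kept, 1231 fell into clusters that carried the markers of basal, ER+ luminal, ER- luminal (ER, estrogen receptor), fibroblast or myeloid cells. These 5 classes are called basal-like and so on, because they were rebuilt from the counts. Levels are given as CPM, the UMIs of a gene per 1000000 gene UMIs summed over the cells of 1 class in 1 fragment, and a sum was used where at least 5 cells stood behind it. Basal-like sums came from all 4 nipples, 6 ducts and 6 TEBs (6 to 32 cells each), and the basal-like cells of TEBs formed another cluster than those of nipples and ducts, with 1 nipple cell among them. Cells of one fragment shared 1 library, and the labels do not name their plates. Each fragment's cells carried marker UMIs of the other cell types at a low level. Fibroblast and myeloid markers in basal-like cells reached, on average, 7.49% of their level in all pooled cells of the fragment in nipples, 11.6% in ducts and 9.12% in TEBs. Low counts below are set beside the UMIs that other wells would give a gene at that rate. Whole-class sums cannot tell fewer expressing cells from less RNA per cell.

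The clearest result lay in the basal-like cells, where 6 of the 9 members that passed the filter on low counts differed between the locations (edgeR quasi-likelihood test across the 3 locations, adjusted p below 0.05), with 20.6% of all 7316 genes tested called there. *Ltbp2* was nearly absent from TEBs, *Ltbp4* was also lowest there, *Ltbp1* was lowest in the nipple, and *Tgfbr1*, *Tgfbr3* and *Ltbp3* were higher in the nipple than in TEBs. *Tgfb2*, *Tgfb3* and *Tgfbr2* did not pass, and *Tgfb1* was too rare to test, with 6 UMIs in all basal-like cells. Below, the 3 roles are taken in turn, first in basal-like cells and then in the other classes.

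**Figure D1:**
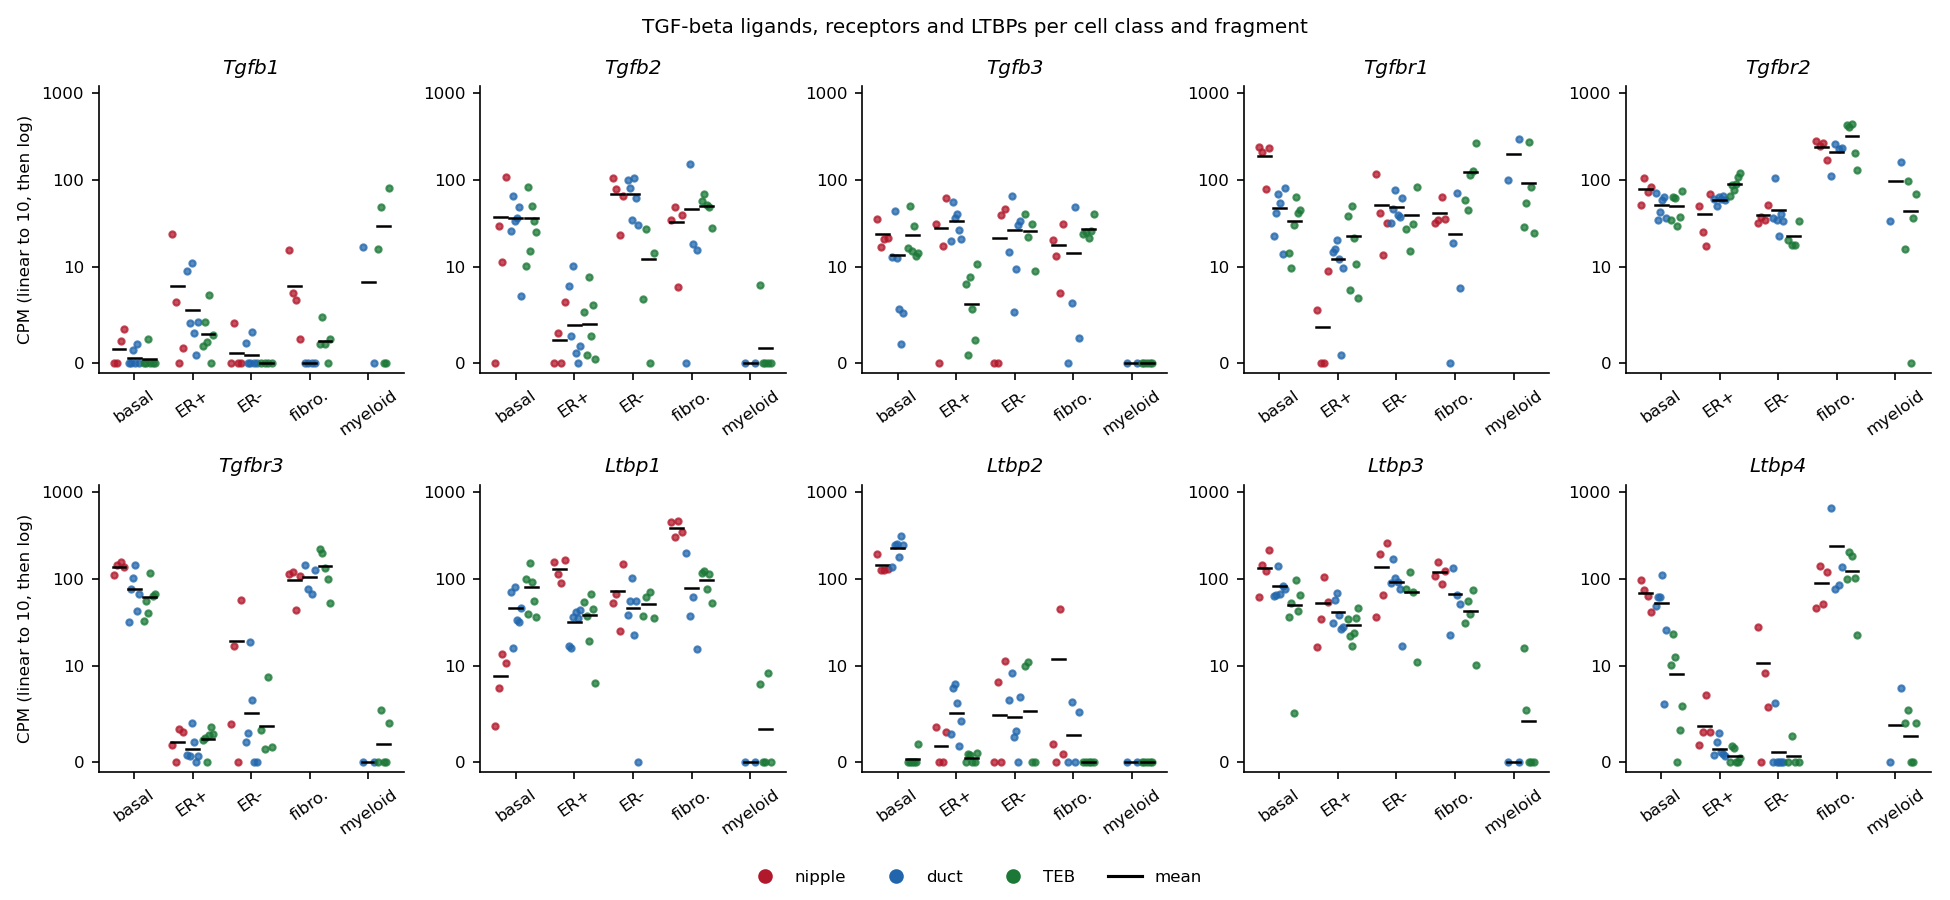
Level of each member in the 5 cell classes, in CPM (axis linear to 10, then logarithmic), with 1 point per fragment coloured by location and a black bar at the mean of each location. *Ltbp2* reached 126 to 313 CPM in nipple and duct basal-like cells and was low elsewhere, whereas *Tgfbr2* was highest in fibroblast-like cells, with an overall mean of 261 CPM.

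Across the classes, each member had its own order of levels, and these orders are descriptions of clusters, without a test. *Ltbp2* averaged 122 ± 109.7 CPM (SD, n = 16) in basal-like cells, and 1002 of its 1222 UMIs lay in this class. Its means were 4.95 CPM in ER- luminal-like, 4.61 CPM in fibroblast-like and 2.52 CPM in ER+ luminal-like cells, which did not differ beyond their spread, and no UMI was found in the 7 myeloid-like sums, where a count of 0 allows up to 2.6 CPM. *Tgfbr2* averaged 261 ± 106 CPM (SD, n = 13) in fibroblast-like cells, above the basal-like cells of the same fragment in 13 of 13 fragments, and its epithelial means of 37.0 to 66.3 CPM lay within their spread of one another. *Tgfbr3*, the co-receptor betaglycan that presents ligand to the type II receptor, averaged 116 ± 52.4 CPM in fibroblast-like and 86.7 ± 43.2 CPM in basal-like cells, and fibroblast-like cells were the higher in only 7 of 13 fragments. Its luminal means were 8.83 CPM (ER-) and 1.93 CPM (ER+).

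*Ltbp4* showed a like order, at 147 ± 159 CPM in fibroblast-like and 40.4 ± 34.9 CPM in basal-like cells, and its means were at or below 3.71 CPM in luminal-like and myeloid-like cells. Single locations could lie higher, since ER- luminal-like sums gave 13 *Ltbp4* UMIs in nipple against 2 in duct and 2 in TEB. *Tgfb2* averaged 52.2 ± 37.0 CPM in ER- luminal-like, 43.7 ± 38.1 CPM in fibroblast-like and 36.3 ± 28.9 CPM in basal-like cells, neighbours that overlapped. ER+ luminal-like cells had 3.61 ± 3.41 CPM of *Tgfb2* and were below the basal-like cells of the same fragment in 15 of 16 fragments. *Tgfb3* was similar in the 4 non-myeloid classes, with means of 19.7 to 24.8 CPM, and had no UMI in myeloid-like sums. Outside the 5 classes, a cluster of 19 cells named pericyte from its markers had a pooled *Tgfb3* level of 151 CPM (43 UMIs). *Tgfb1*, the ligand best known from immune cells, averaged 23.3 ± 30.8 CPM (SD, n = 7) in myeloid-like cells, but the 7 sums ran from 0 to 80.8 CPM on 35 UMIs, and its other class means were 0.683 to 5.20 CPM. *Tgfbr1* was highest in myeloid-like cells at 122 ± 112 CPM and lowest in ER+ luminal-like cells at 13.98 ± 13.5 CPM, where basal-like cells of the same fragment were the higher in 14 of 16 fragments. *Ltbp1* was highest in fibroblast-like cells at 181 ± 156 CPM and stood between 49.7 and 58.9 CPM in the 3 epithelial classes. *Ltbp3* averaged 98.2 CPM in ER- luminal-like, 83.3 CPM in basal-like, 73.6 CPM in fibroblast-like and 39.9 CPM in ER+ luminal-like cells, neighbours within their spread.

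No ligand passed the test between locations in basal-like cells. *Tgfb2* was found at 0, 29.1, 11.5 and 107 CPM in the nipples N21 to N24, at 6.93 to 64.8 CPM in ducts (median 35.02) and at 10.2 to 82.6 CPM in TEBs (median 29.5). The 3 ranges overlapped almost wholly (adjusted p = 0.97), and the spread between nipples was wider than any difference of means. *Tgfb3* lay at 16.9 to 35.8 CPM in nipples, 2.01 to 44.0 CPM in ducts and 13.2 to 49.6 CPM in TEBs, again overlapping (adjusted p = 0.74). Neither value shows that the levels were equal, since the SD of *Tgfb2* was 48.5 CPM over the nipples alone.

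Of the receptors, *Tgfbr1* differed most in basal-like cells. Its level was 239.5, 207, 77.9 and 233 CPM in N21 to N24, with 14.1 to 81.4 CPM in ducts (median 47.6) and 9.92 to 62.7 CPM in TEBs (median 36.0). All 4 nipples lay above all 6 TEBs, and only N23 fell inside the range of the ducts. The means were 189 ± 75.6 CPM (SD, n = 4), 47.1 ± 26.3 CPM (n = 6) and 34.05 ± 19.95 CPM (n = 6). *Tgfbr1* was higher in nipple than in TEB by 2.61 on the log2 scale (SE 0.45, adjusted p = 4.7e-05 with 18.7% of genes called in this contrast) and than in duct by 1.98 (SE 0.44, adjusted p = 0.0039, 6.29% called). Duct and TEB differed by 0.62 (adjusted p = 0.41). The share of basal-like cells with a *Tgfbr1* UMI was 45.4% in nipples, 36.5% in ducts and 37.8% in TEBs, at median depths of 21458, 23039 and 43900.5 UMIs per cell, and after every cell was thinned to 5000 UMIs it was 34.02%, 16.5% and 9.76%. In ER+ luminal-like cells, the class lowest in this gene, the shares were 13.95%, 13.1% and 21.97% (median depths 45998, 31775 and 40054 UMIs), and 3.27% in ducts and 8.09% in TEBs after thinning, so the thinned TEB shares of both classes were close.

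*Tgfbr3* followed with a smaller difference. Nipples held 109, 143, 158 and 138 CPM, ducts 32.1 to 144 CPM (median 72.0) and TEBs 32.6 to 116 CPM (median 59.5), so that the ranges overlapped. The log2 difference of nipple and TEB was 1.31 (SE 0.38, adjusted p = 0.013). The test across the 3 locations (adjusted p = 0.032) was not passed without N22 (0.077), N23 (0.096), N24 (0.066), T31 (0.059), T33 (0.0509) or T42 (0.051), nor with at least 10 cells per sum (0.082) or classes taken from marker lists (0.066). *Tgfbr2* was found at 50.9 to 106 CPM in nipples, 34.7 to 70.7 CPM in ducts and 29.7 to 75.3 CPM in TEBs (adjusted p = 0.31), a log2 difference of nipple and TEB of 0.80 (SE 0.41) that did not pass.

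**Figure D2:**
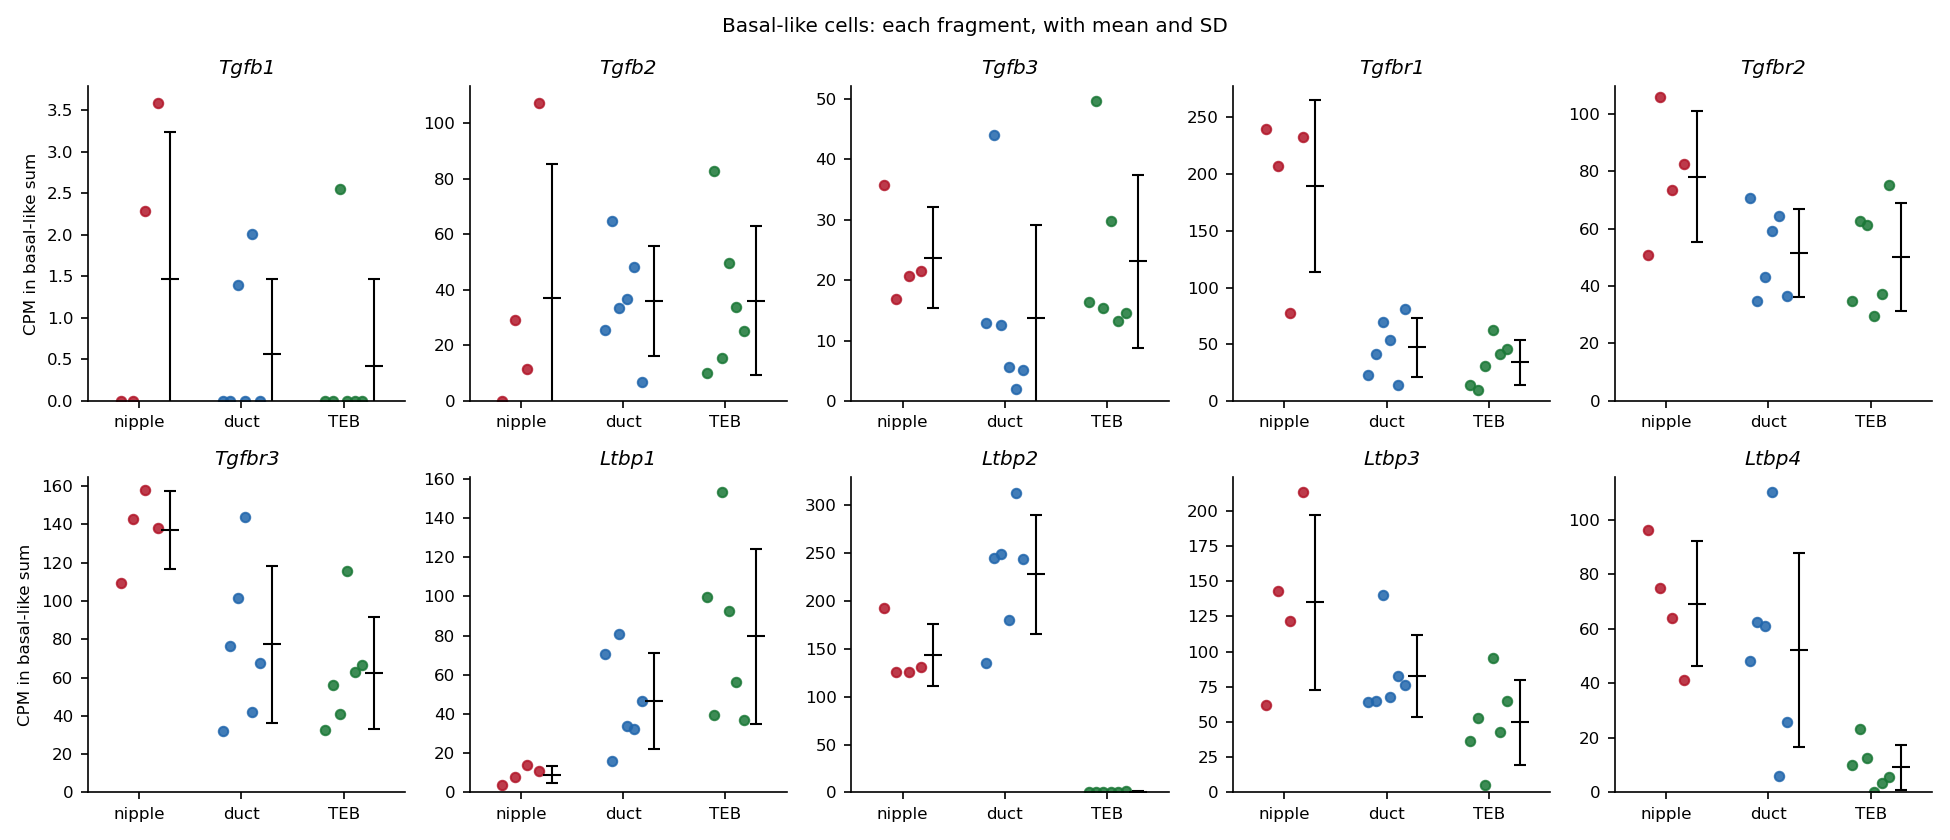
Level of the members in basal-like cells of each fragment, in CPM, with 1 point per fragment and a bar at the mean with 1 SD (drawn down to 0 at most), for 4 nipples, 6 ducts and 6 TEBs. *Ltbp2* lay at or above 126 CPM in every nipple and duct and at or below 1.93 CPM in every TEB, while *Ltbp1* was lower in all 4 nipples than in any duct or TEB.

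*Ltbp2*, an LTBP that binds fibrillin but is thought not to bind latent TGF-beta itself, gave the widest separation. Its level was 192, 126, 126 and 131 CPM in N21 to N24 and 135 to 313 CPM in ducts (median 245). In TEBs it was 0 in 5 of 6 fragments and 1.93 CPM in T43, where 1 cell held both UMIs. No TEB came near any nipple or duct. In total 312 UMIs were counted in nipple, 688 in duct and 2 in TEB basal-like cells, rates that differ 268-fold between nipple and TEB (95% counting interval 73.4 to 2219.0) and 444-fold between duct and TEB (122 to 3674.1). The differences passed with adjusted p = 2.6e-13 and 2.3e-14, and nipple against duct did not (log2 difference −0.68, adjusted p = 0.24). Other wells would have given 5.56, 17.1 and 1.02 UMIs in nipple, duct and TEB, so the 2 TEB UMIs are near that level. A *Ltbp2* UMI was seen in 53.6% of nipple, 77.4% of duct and 1.22% of TEB basal-like cells, against 9.30%, 12.1% and 1.73% of the deeper ER+ luminal-like cells (median depths as for *Tgfbr1*). At 5000 UMIs per cell these basal-like shares were 35.1%, 50.4% and 0 of 82 TEB cells, which allows a share of up to 3.66%.

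*Ltbp4*, which anchors latent TGF-beta 1 and supports elastic fibre assembly, was also lowest in TEBs. The nipples had 96.2, 75.2, 64.2 and 41.2 CPM, the ducts 6.03 to 110.0 CPM (median 54.7) and the TEBs 0 to 23.1 CPM (median 7.99). All nipples stood above all TEBs, and the ducts overlapped both. The log2 difference was 3.16 for nipple and TEB (SE 0.64, adjusted p = 4.5e-04) and 2.73 for duct and TEB (SE 0.61, adjusted p = 0.0019, 10.4% of genes called), while nipple and duct differed by 0.43 (adjusted p = 0.79).

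*Ltbp3*, another carrier of latent TGF-beta, was higher in nipple than in TEB but with overlap. Nipples held 62.2, 143, 121 and 213 CPM, ducts 64.3 to 140.4 CPM (median 72.0) and TEBs 5.11 to 95.8 CPM (median 47.9). The log2 difference of nipple and TEB was 1.61 (SE 0.43, adjusted p = 0.0069). Without N24 the test across locations was not passed (adjusted p = 0.094). The duct mean of 82.6 CPM lay between the other two, and neither of its contrasts passed (adjusted p = 0.42 against nipple and 0.16 against TEB).

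*Ltbp1*, the first described carrier of latent TGF-beta, ran the other way. Its level was 3.77, 7.67, 13.8 and 10.7 CPM in N21 to N24, 16.2 to 80.6 CPM in ducts (median 40.3) and 36.7 to 153 CPM in TEBs (median 74.3). Every nipple was below every duct and every TEB. *Ltbp1* was lower in nipple than in TEB, by −2.95 on the log2 scale (SE 0.59, adjusted p = 4.2e-04), and than in duct, by −2.36 (SE 0.59, adjusted p = 0.011). Duct and TEB did not differ past the threshold (−0.58, adjusted p = 0.48). Nipple basal-like cells gave 19 *Ltbp1* UMIs in all, where other wells would have given 32.4, so this level is not above the other-well estimate. The share of cells with an *Ltbp1* UMI was 16.5%, 29.6% and 54.9% in nipple, duct and TEB, and 1.03%, 14.8% and 24.4% at 5000 UMIs per cell. In myeloid-like cells, which should lack it, the shares were 16.7% in nipples (2 of 12 cells), 0 of 25 cells in ducts, which allows up to 12%, and 4.88% in TEBs (2 of 41), at median depths of 24059, 13758 and 22406 UMIs.

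The basal-like classes of the 3 locations were themselves unlike in their markers. All 8 basal markers were detected everywhere, but their summed level was 16999 to 19885 CPM in nipples, 20025 to 25047 CPM in ducts and 4828 to 8726 CPM in TEBs. The 7 fibroblast markers, all detected, summed to 928 to 1875 CPM in nipple, 263 to 456 CPM in duct and 231 to 489 CPM in TEB basal-like cells. In fibroblast-like cells of the nipple the members high in nipple basal-like cells averaged 41.5 CPM for *Tgfbr1*, 97.1 CPM for *Tgfbr3*, 118 CPM for *Ltbp3*, 89.7 CPM for *Ltbp4* and 12.1 CPM for *Ltbp2*. Nipple basal-like cells gave 426, 297, 298, 151 and 312 UMIs of these 5 genes, against 10.4, 11.1, 16.3, 8.57 and 5.56 that other wells would give. The part of the marker differences in the results was not tested further.

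In ER+ luminal-like cells, the hormone-sensing cells of the duct, 2 of 5 tested members were called (5.7% of all genes). *Ltbp1* was high in the nipple, the reverse of basal-like cells. It was found at 156, 114, 88.4 and 163 CPM in N21 to N24, 16.2 to 44.4 CPM in ducts (median 36.1) and 8.25 to 66.4 CPM in TEBs (median 41.0). All nipples stood above all other fragments. The log2 difference was 1.79 to TEB (SE 0.41, adjusted p = 0.0055, 5.67% of genes called) and 1.99 to duct (SE 0.41, adjusted p = 0.0046, 2.03% called). Nipple ER+ luminal-like cells gave 274 *Ltbp1* UMIs against 39.6 that other wells would give. With every cell thinned to 5000 UMIs the test across locations was not passed (adjusted p = 0.11). Their 7 fibroblast markers summed to 898 to 2220 CPM in nipples against 208 to 598 CPM in ducts and 168 to 370 CPM in TEBs, and fibroblast-like cells of the nipple were also high in *Ltbp1* (below). The share of this in the result was not tested beyond the other-well count.

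*Tgfb3* was the second called member of the ER+ luminal-like cells, and the only ligand that edgeR called across locations in any class. Ducts held 19.8 to 56.2 CPM (median 31.5) and TEBs 0.849 to 10.7 CPM (median 6.92), whereas nipples were scattered at 31.3, 0, 17.3 and 62.2 CPM. All 6 ducts lay above all 6 TEBs, and the log2 difference was 2.43 (SE 0.58, adjusted p = 0.018, 1.82% called). Nipple and TEB differed by 2.17 (SE 0.63, adjusted p = 0.035), with overlap. With classes taken from marker lists the test across locations was not passed (adjusted p = 0.058). Without D32 the test across locations just failed to pass (adjusted p = 0.051). The duct and TEB contrast did not pass without D32 (0.076) or D52 (0.0507). The contrast of nipple and TEB was lost without N21 (0.0605), N24 (0.27), T32 (0.066), T34 (0.0605) or T42 (0.065). It was also lost with marker-list classes (0.082) or a cluster resolution of 1 (0.056), and the duct and TEB contrast with marker-list classes (0.056).

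The receptor *Tgfbr2* was found in these cells at 49.7, 25.4, 17.3 and 68.6 CPM in nipples, 49.9 to 64.9 CPM in ducts (median 60.0) and 64.4 to 119 CPM in TEBs (median 88.2). It missed the threshold across locations with edgeR (adjusted p = 0.076) but not with DESeq2 (0.023), although the contrast of nipple and TEB alone gave −1.13 (SE 0.33, adjusted p = 0.035). That contrast did not pass without any one of N22, N23, T32, T34, T42 or T43 (adjusted p from 0.054 to 0.12), nor with thinned cells (0.22), at least 10 cells per sum (0.085), marker-list classes (0.073), a cluster resolution of 1 (0.077) or only the compared locations (0.097), while the test across locations passed without N24 (0.017). *Tgfbr1*, at 3.77, 12.4 and 22.4 CPM on average in nipple, duct and TEB, and *Ltbp3*, at 52.9, 41.5 and 29.7 CPM, were not called (adjusted p = 0.22 and 0.46). The other 5 members were too low to test. *Tgfbr3* gave 32 UMIs, *Ltbp4* 23 and *Ltbp2* 46 over all ER+ luminal-like sums, at or under the 68.6, 54.8 and 55.6 UMIs that other wells would give. *Tgfb1* gave 79 UMIs and *Tgfb2* 64, the latter against 43.4.

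In ER- luminal-like cells, the class that holds the alveolar progenitors, none of the 6 tested members was called by edgeR (4.38% of all genes called). At an unadjusted p below 0.05 there was 1, *Tgfb2*, in a class where 885 of 5597 genes were below it, and DESeq2 called this member (adjusted p = 0.015). *Tgfb2* had 104, 79.3, 23.03 and 66.0 CPM in nipples, 30.6 to 104 CPM in ducts (median 71.1) and 6.72, 27.5, 0 and 14.4 CPM in the 4 TEBs with enough cells. All ducts stood above all TEBs and 3 of 4 nipples did, yet the test across locations gave an adjusted p of 0.068. The contrast of nipple and TEB passed on its own (2.43, SE 0.72, adjusted p = 0.042, 4.65% of genes called) and that of duct and TEB did not (2.36, adjusted p = 0.071, 1.43% called). The first did not pass without N21 (0.12), N22 (0.093), N24 (0.070), D31 (0.053), D32 (0.052), D52 (0.056), T32 (0.11), T34 (0.0999) or T42 (0.104), whereas the test across locations passed without N23 (0.038) or T33 (0.044). The nipple and TEB contrast also did not pass with at least 10 cells per sum (1.39, adjusted p = 0.79) or marker-list classes (0.085). The 8 basal markers summed to 1730 to 3341 CPM in these nipple sums, and their part was not tested. The other 5 tested members, *Tgfb3*, *Tgfbr1*, *Tgfbr2*, *Ltbp1* and *Ltbp3*, gave adjusted p from 0.59 to 0.99.

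**Figure D3:**
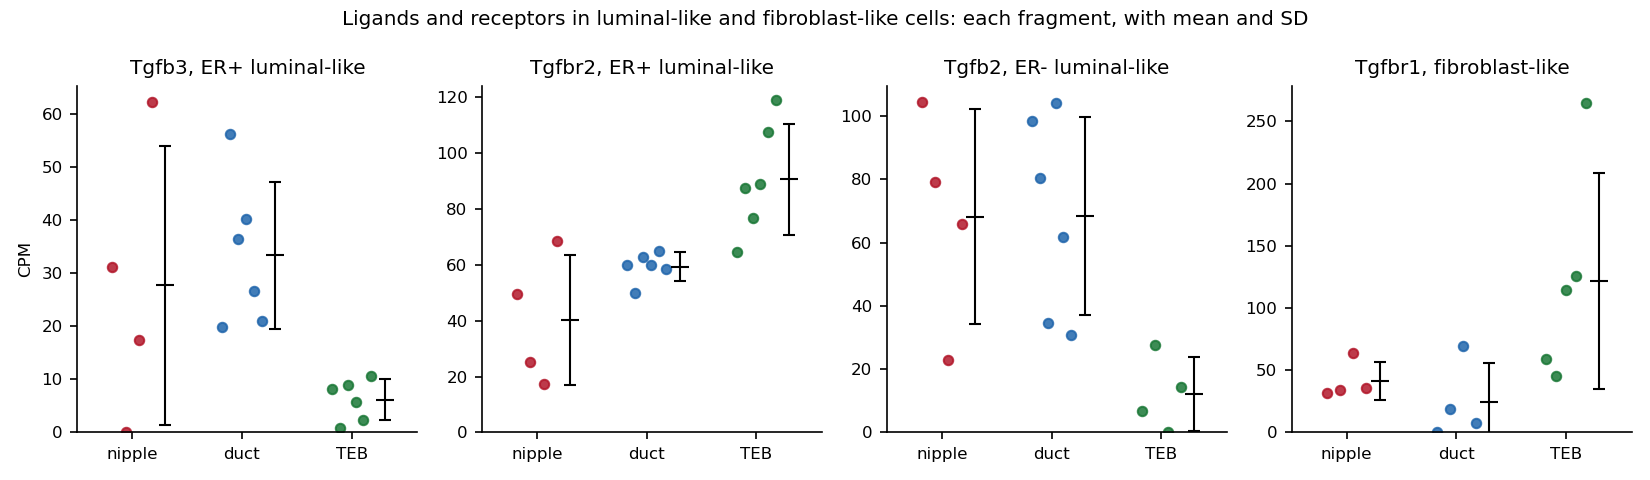
Levels of *Tgfb3* and *Tgfbr2* in ER+ luminal-like, *Tgfb2* in ER- luminal-like and *Tgfbr1* in fibroblast-like cells, in CPM, with 1 point per fragment and a bar at the mean with 1 SD (drawn down to 0 at most). *Tgfb3* was higher in every duct than in any TEB, and *Tgfb2* reached at most 27.5 CPM in a TEB.

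Fibroblast-like cells had 8 testable members and 1 call, *Ltbp1* (1.7% of all genes called). The nipples held 446, 305, 456 and 349.7 CPM, the 4 ducts 201, 37.8, 61.99 and 15.6 CPM, and the 5 TEBs 118, 124, 75.8, 114 and 52.9 CPM. All nipples were above all other fragments. The log2 difference of nipple and TEB was 2.08 (SE 0.44, adjusted p = 0.0095, 1.54% called) and of nipple and duct 2.53 (SE 0.51, adjusted p = 0.032, 0.2% called). With 1 fragment left out, the latter passed only without D32 or T42, and leaving out any other one gave adjusted p from 0.054 to 0.14. With all fragments in place it did not pass under another scaling of the counts (0.056). The locations were not made of the same fibroblast-like clusters: cluster 4 held 115 nipple, 29 duct and 16 TEB cells, and cluster 8, led by *Pi16* and *Dpp4*, held 1, 3 and 64. Within cluster 4 alone, the pooled *Ltbp1* level was 398 CPM in nipple, 72.4 CPM in duct and 114 CPM in TEB, which was not tested. At a cluster resolution of 1, most of its nipple cells stood apart (86 from nipple, with 1 from duct and 0 from TEB). The rest lay in another group, with 29 from nipple, 28 from duct and 16 from TEB. The pooled *Ltbp1* levels may therefore compare unlike cells.

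The other members of the fibroblast-like class did not pass. *Tgfbr1* averaged 41.5, 24.1 and 122 CPM in nipple, duct and TEB (adjusted p = 0.20), with T42 at 265 CPM, and it passed without D61 (0.025). Cluster 9, a fibroblast-like cluster of 0 nipple, 6 duct and 18 TEB cells, had the highest pooled *Tgfbr1* level, 292 CPM in TEB cells. Within cluster 4 the pooled level was 44.3 CPM in nipple, 37.8 CPM in duct and 15.5 CPM in TEB (8 UMIs), the opposite order to the class means of nipple and TEB. Most nipple cells of cluster 4 stood apart at a cluster resolution of 1 (given above for *Ltbp1*), so these levels may also compare unlike cells. *Tgfbr2* averaged 239, 207 and 321 CPM (adjusted p = 0.74) and *Tgfbr3* 97.1, 104 and 142 CPM (adjusted p = 0.84). *Ltbp3* averaged 118, 67.8 and 42.3 CPM (adjusted p = 0.23), and passed with thinned cells (0.031). *Ltbp4* averaged 89.7, 236 and 122 CPM (adjusted p = 0.68), where 1 duct, D32, stood at 647 CPM. *Tgfb2* (32.7 to 50.5 CPM) and *Tgfb3* (14.5 to 27.2 CPM) were level within their spread. *Ltbp2* was untested, and 67 of its 72 nipple UMIs came from 1 cell of N23.

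Myeloid-like cells, which include macrophages, came from 2 ducts and 5 TEBs, and no nipple had enough of them. Of the members only *Tgfbr1* and *Tgfbr2* passed the filter, and neither was called by edgeR or DESeq2 or had an unadjusted p below 0.05, in a class where 0 of 3321 genes were called and 249 had an unadjusted p below 0.05. *Tgfbr1* was at 101 and 291 CPM in the ducts and at 28.3, 54.5, 271, 83.0 and 24.3 CPM in the TEBs, which overlapped. *Tgfbr2* ranged from 0 to 161 CPM. *Tgfb2*, *Tgfbr3* and the LTBPs gave at most 5 UMIs each here.

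**Figure D4:**
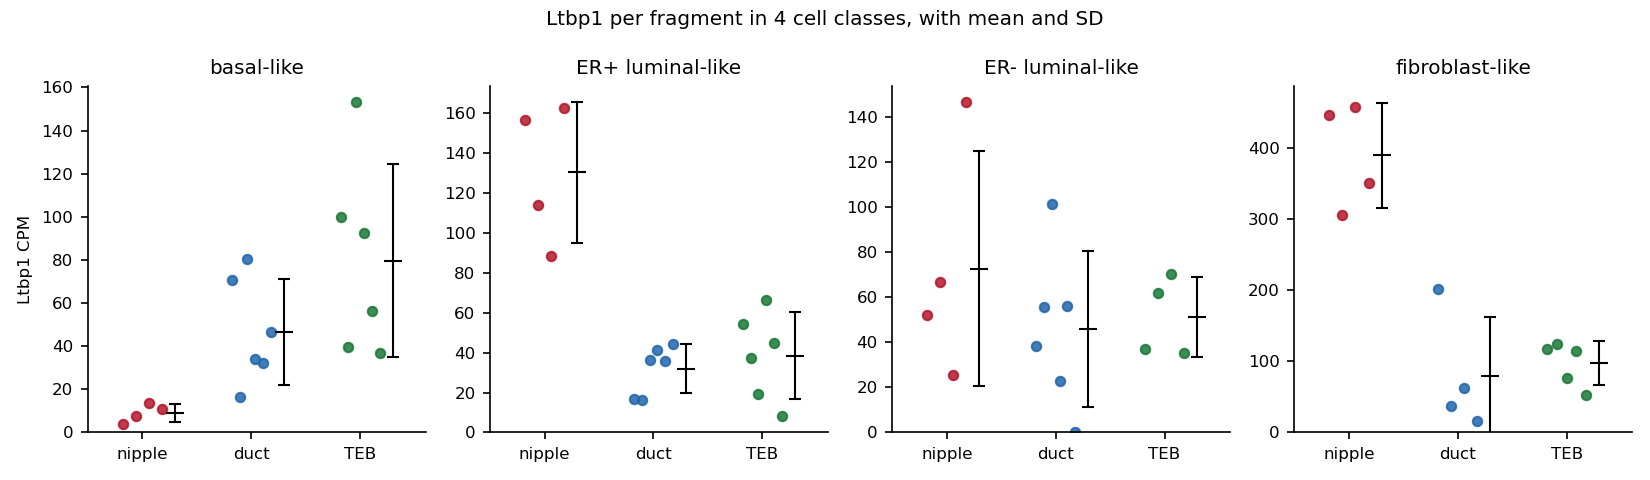
Level of *Ltbp1* by location in the epithelial and fibroblast-like classes, in CPM, with 1 point per fragment and a bar at the mean with 1 SD (drawn down to 0 at most). Nipples lay below all ducts and TEBs in basal-like cells but above all of them in ER+ luminal-like and fibroblast-like cells.

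Whether a member changed differently in 2 classes was tested with a class-by-location term, with the fragments that had both classes. For the pair of basal-like and ER+ luminal-like classes, in 16 fragments, 4 of 9 members were called (6.85% of all genes). *Ltbp1* had the strongest term (adjusted p = 2.5e-05), and its nipple minus TEB log2 difference was 4.81 lower in basal-like cells, written as −4.81 (SE 0.72). *Tgfbr1* went the opposite way, with a nipple minus TEB difference greater by 5.06 in basal-like cells (SE 0.94, adjusted p = 0.0011), although ER+ luminal-like cells of the nipple gave only 9 *Tgfbr1* UMIs, with 12.7 expected from other wells. *Tgfbr2* differed by 2.09 (SE 0.55, adjusted p = 0.038) and *Ltbp2* also passed (adjusted p = 0.023), although its luminal counts were at the other-well level. The *Tgfbr2* call was lost without N22 (0.12), N23 (0.15), T31 (0.058), T34 (0.078), T42 (0.072) or T43 (0.052), and the *Ltbp2* call without T32 (0.0703), T33 (0.068) or T43 (0.082). Neither passed with thinned cells (0.51 and 0.17) or with at least 10 cells per sum (0.11 and 0.24).

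Between basal-like and fibroblast-like cells of 13 fragments, 3 of 9 members were called (3.34% of all genes). *Ltbp1* again differed most, at −5.14 (SE 0.75, adjusted p = 5.8e-05), followed by *Tgfbr1* at 4.22 (SE 0.85, adjusted p = 0.0049) and *Ltbp4* at 3.42 (SE 0.82, adjusted p = 0.036). *Tgfbr1* did not pass with at least 10 cells per sum (0.18), nor *Ltbp4* with thinned cells (0.097). The *Tgfbr1* values of fibroblast-like cells depended on the cluster, as given above, and the part of this in the term was not tested. The *Ltbp4* term was lost without N21 (0.15), N22 (0.056), N23 (0.12), T32 (0.071), T33 (0.089) or T34 (0.074). For basal-like against ER- luminal-like classes, in 14 fragments, only *Ltbp2* of 9 members was called (adjusted p = 5.3e-04, 2.77% of all genes), and not with thinned cells (0.9997) or at least 10 cells per sum (0.85). Between the luminal-like classes 0 of 6 members were called by edgeR (1.93% of all genes), and DESeq2 was not run on these terms.

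Other genes of the pathway were read from 6 lists of 102 genes in basal-like cells, of which 60 passed the filter and 31 were called across locations. Over all 7316 genes tested in this class 20.6% were called across locations, which also stands beside the counts per list below. The lists were chosen with earlier results of these data known, so the counts are a description and no evidence of an excess. In the contrast of nipple and TEB, 18 of the 60 were higher and 9 lower, where 8.9% of all genes tested were called higher and 9.81% lower. For comparison, the median log2 difference of nipple and TEB over all genes was −0.05.

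Genes that release or bind TGF-beta outside the cell were mostly higher in the nipple where they were called. Of 15 tested, 7 were called, 6 of them higher in nipple than in TEB and 0 lower, with a median log2 difference of 0.81. *Bgn*, a proteoglycan that binds TGF-beta, was at 372 CPM in nipple, 212 CPM in duct and 23.2 CPM in TEB (nipple minus TEB 4.09, adjusted p = 1.1e-11). *Thbs1*, thrombospondin 1, an activator of the latent complex, was at 864, 1139 and 433 CPM (1.16, adjusted p = 1.4e-05), and *Mmp2*, a matrix protease, at 245, 45.9 and 13.3 CPM (4.25, adjusted p = 2.5e-06). *Fst*, follistatin, which binds activin, was at 798, 385 and 499 CPM (0.84, adjusted p = 0.010). Fibroblast markers were also higher in nipple than in TEB basal-like sums (above), and fibroblast-like cells of the nipple averaged 1140.0 CPM of *Bgn*, 1628 CPM of *Mmp2*, 488 CPM of *Thbs1* and 186 CPM of *Fst*, as well as 1593 CPM of *Eln* and 3982 CPM of *Postn* (both below). Their part in these differences was not tested.

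The microfibril and elastic fibre genes, whose proteins LTBPs bind in the matrix, split. Of 9 tested, 7 were called, 3 higher and 3 lower in nipple than in TEB, with a median of 0.59. *Eln*, tropoelastin, was at 315, 116 and 36.1 CPM in nipple, duct and TEB (3.32, adjusted p = 5.2e-07). *Fbn2*, fibrillin 2, was the reverse at 1.21, 16.5 and 83.1 CPM (−5.56, adjusted p = 2.3e-05), as were *Fbln2* at 152, 363 and 513 CPM (−1.59, adjusted p = 1.2e-05) and *Fbln1* at 45.3, 47.7 and 163 CPM (−1.66, adjusted p = 0.0010).

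Among SMADs and their regulators, 5 of 15 tested genes were called, all of them higher in nipple than in TEB, with a median of 0.64. *Pmepa1*, which sequesters receptor SMADs, was at 678, 456 and 71.7 CPM (3.39, adjusted p = 7.8e-15), and *Smad7*, the inhibitory SMAD, at 124, 111 and 13.5 CPM (3.26, adjusted p = 7.3e-08). *Nedd4l*, a ubiquitin ligase for SMADs, was at 229.6, 165 and 67.1 CPM (1.92, adjusted p = 5.5e-06) and *Tgif1*, a SMAD corepressor, at 434, 318 and 249 CPM (0.97, adjusted p = 0.0013). *Pmepa1* and *Smad7* are themselves induced by TGF-beta, and the others act on SMADs.

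Target genes moved both ways. Of 15 tested, 11 were called across locations, and the contrast of nipple and TEB called 4 higher and 4 lower in nipple, with a median of 0.26. *Postn*, the matrix protein periostin, was at 1022, 633 and 37.7 CPM (4.69, adjusted p = 1.2e-05) and *Itga5*, an integrin subunit, at 185, 263 and 57.5 CPM (1.87, adjusted p = 1.0e-05). *Id1*, an inhibitor of helix-loop-helix factors, was highest in duct at 220.1 CPM, against 56.9 CPM in nipple and 64.9 CPM in TEB, and so was *Tagln*, a smooth muscle actin-binding protein, at 2124 CPM against 622.5 and 350.5 CPM. For both genes duct was higher than TEB (by 1.90 and 2.76 on the log2 scale, adjusted p = 7.6e-05 and 5.4e-05) and than nipple (adjusted p = 0.0011 and 0.011).

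The remaining lists were thin. None of 5 tested receptors for activin and bone morphogenetic protein (BMP) was called across locations. Among those with the highest mean levels, *Acvr1*, a type I receptor, was at 37.1, 68.2 and 46.9 CPM in nipple, duct and TEB (adjusted p = 0.31) and *Bmpr1a*, the BMP type IA receptor, at 52.2, 34.01 and 48.3 CPM (adjusted p = 0.71). *Bambi*, a decoy receptor, was at 17.9, 44.5 and 61.1 CPM (adjusted p = 0.098), although its nipple minus TEB contrast alone gave −1.65 (adjusted p = 0.042). Of the activin and BMP ligands only *Bmp7* could be tested, and it was at 30.7, 60.2 and 118 CPM in nipple, duct and TEB (called across locations, nipple minus TEB −1.81, adjusted p = 0.010). In the other classes, pathway genes called across locations numbered 6 of 57 tested in ER+ luminal-like (5.7% of all genes), 3 of 33 in ER- luminal-like (4.38%), 6 of 77 in fibroblast-like (1.7%) and 0 of 26 in myeloid-like cells (0 of 3321 genes).

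**Figure D5:**
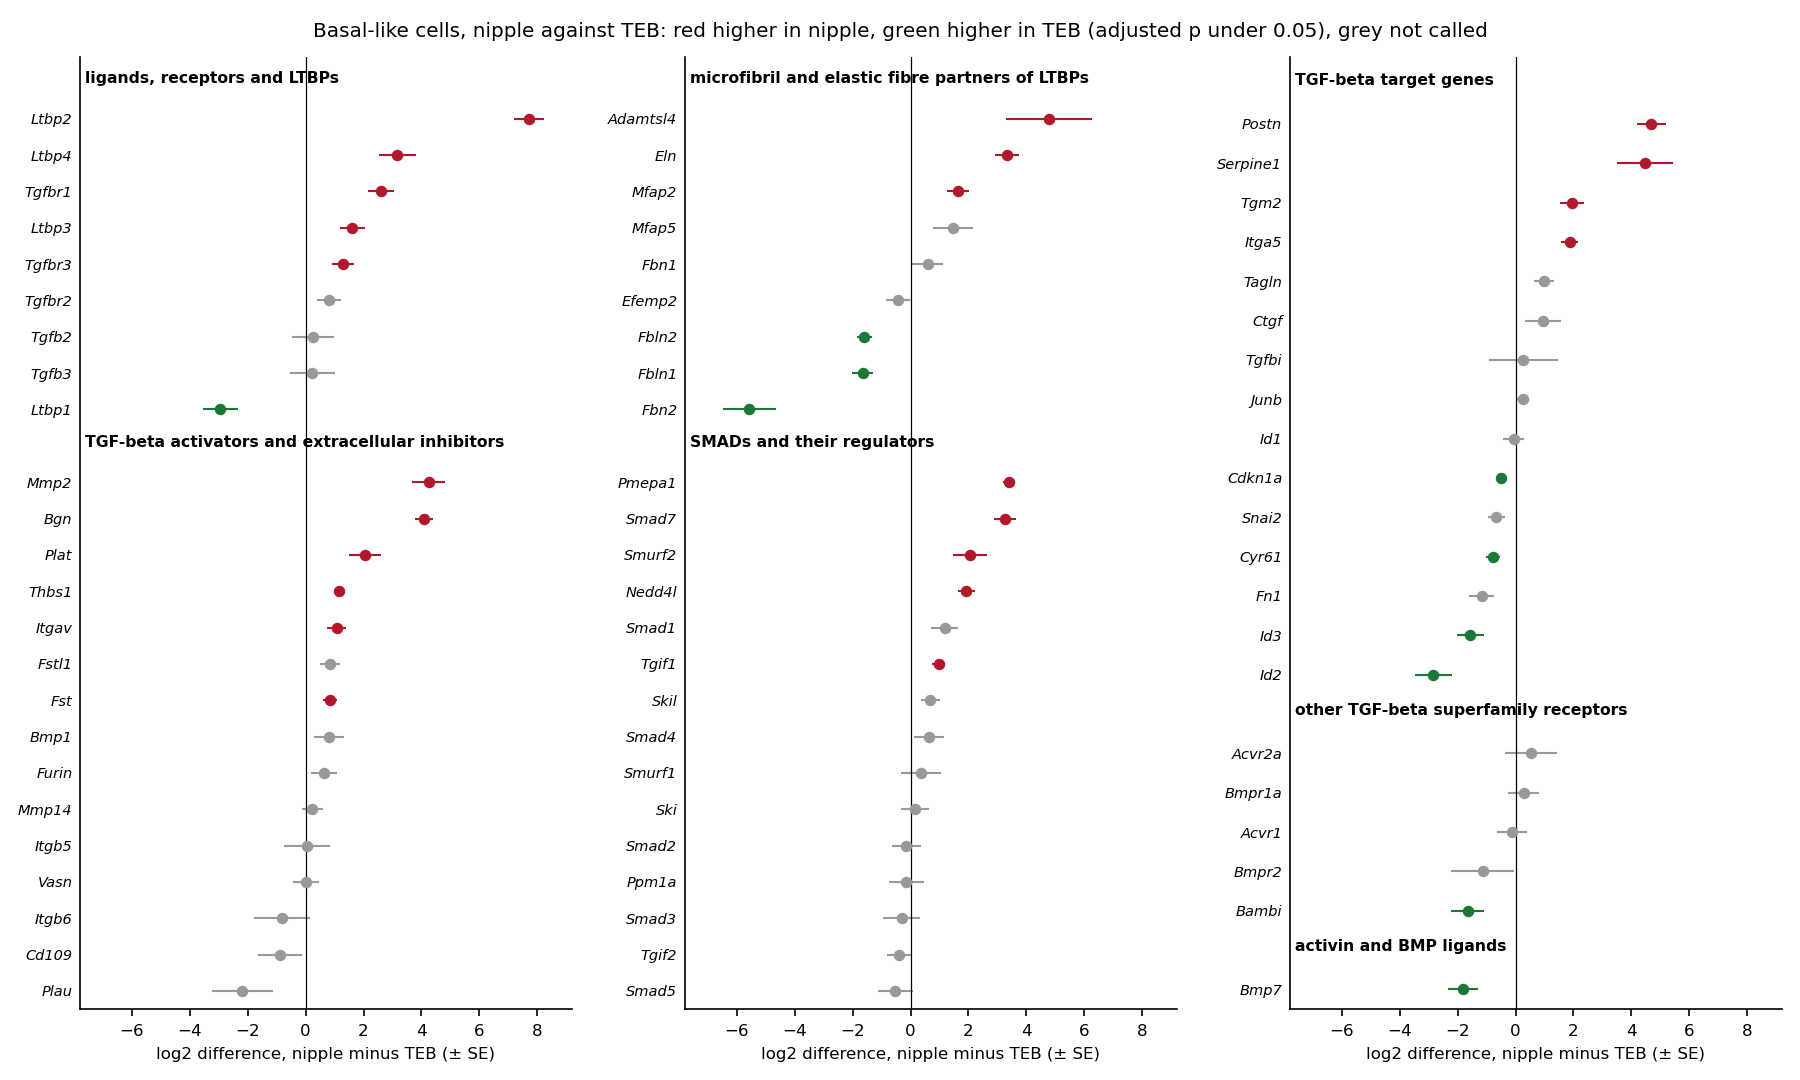
Nipple minus TEB log2 difference with its SE in basal-like cells, for the members and the tested genes of the 6 pathway lists, 1 point per gene, red where higher in nipple, green where higher in TEB (adjusted p below 0.05 in this contrast) and grey otherwise. Called genes of the SMAD list all lay above 0, while called fibre partners of the LTBPs lay on both sides.

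The genes most like each member called in basal-like cells were sought among 8704 genes over 66 profiles (1 class in 1 fragment each), as the correlation of log2(CPM + 1). The points share fragments, libraries and clusters, so r is a description only. *Ltbp2* lay closest to *Myh11* (r = 0.78), *Wnt10a* (0.77) and *Cnn1* (0.77), of which *Myh11* and *Cnn1* encode smooth muscle proteins of basal cells. *Ltbp4* lay closest to *Sparc* (0.88), *Fstl1* (0.86) and *Pdpn* (0.84), and *Tgfbr3* to *Lamb1* (0.91), *Cxcl12* (0.91) and *Antxr1* (0.90). *Ltbp3* was most like *Syne2* (0.79), *Slc2a1* (0.78) and *Wwtr1* (0.78). For *Ltbp1* the values were lower, with *Sdc2* (0.73), *Twsg1* (0.70) and *Gps1* (0.69), and for *Tgfbr1* lower again, with *Mycbp2* (0.68) and *Cmtm3* (0.61).

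In the mouse genome (GRCm38) the members lie apart, except that *Ltbp2* (chromosome 12, 84783212 to 84876532, minus strand) and *Tgfb3* (chromosome 12, 86056745 to 86079041, minus strand) are on one chromosome. So are *Tgfb1* (chromosome 7, 25687002 to 25705077, plus strand), not tested in any class, and *Ltbp4* (chromosome 7, 27305136 to 27337692, minus strand). *Ltbp1* is at chromosome 17, 75005568 to 75392512 (plus strand), and *Tgfbr1* at chromosome 4, 47353222 to 47414931 (plus strand). *Ltbp3* is at chromosome 19, 5740904 to 5758532 (plus strand), and *Tgfbr3* (chromosome 5, 107106570 to 107289629, minus strand) shares exons with *Gm43422*. Whether counting used strand is not given in the sources used here, so reads of overlapping exons may be split or shared, and the counts of *Ltbp3* and *Tgfbr3* are uncertain to that extent.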

How the data were processed

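Single cells of 16 mammary fragments (4 nipples, 6 ducts, 6 TEBs) had been sorted 1 per well into plates with ERCC spike-in RNA and sequenced by 3' SMART-seq with UMIs. The authors deposited 1 table of UMI counts, raw whole numbers of 17721 genes and 67 spike-ins in 1419 cells. Groups came from the tissue source given for each sample, and the sample titles linked the columns of the count table to the samples. The submitters' processing notes name Trim Galore, FastQC, UMI-tools, STAR, featureCounts and the mm10 genome, with versions not given in the sources used here. The 95 barcode names are plate barcodes, each found in more than 1 library. No doublet caller was run, since wells were sorted for single cells and an upper UMI limit was set.

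Cells with at most 5% ERCC UMIs, 5000 to 120000 UMIs and 200 to 6000 genes were kept (1318) and clustered in Seurat 5.3.0 (R 4.3.3) on 2000 variable genes, 14 principal components and resolution 0.5, with ERCC share, cell cycle and gene number regressed out. Clusters were named from marker lists. *Tgfbr1*, *Ltbp1*, *Ltbp2* and *Ltbp4* were among the variable genes, and clustering without the members and pathway genes gave the same 6 members called in basal-like cells. UMI counts were then summed per class and fragment (at least 5 cells) and tested over all genes with edgeR 4.0.16 (TMM scaling, filterByExpr, quasi-likelihood, 3 locations in 1 fit, Benjamini-Hochberg adjustment, threshold 0.05). A class-by-location term was fitted for pairs of classes with the fragment as a block. The script was tested on simulated data. CPM excludes spike-ins, and the sums held 89639 to 2061534 UMIs. Counting intervals are exact, at 95%, and cover counting error only.

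The UMIs expected from other wells are the class total times the gene's rate in all cells of the fragment, times an other-well share. For epithelial classes that share is the median over cells of the fibroblast and myeloid marker fraction, divided by the same fraction in the pooled fragment. Pathway genes named are, per list, up to 4 called in basal-like cells with the smallest p across locations, or those with the highest mean CPM where none was called, and like genes are the 3 with the highest r among genes at 20 CPM or more in a class (for *Tgfbr1* one of them is not reported here). The members and all lists were chosen with earlier results of these data known. Alternatives were another scaling, no count filter, DESeq2 1.42.0, thinned cells, at least 10 cells per sum, classes from marker lists, other clusterings, only the compared locations, the replicate block, and each fragment left out in turn. Gene positions are from GENCODE M21 (GRCm38). Figures were drawn with matplotlib 3.10.9.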

Additional observations from a re-analysis of the deposited data

Results flagged for a closer look

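Single fragments stood apart from the rest of their group in 13 of 86 groups of 4 or more fragments, by Dixon's gap test, which chance alone would give in about 1 in 20 groups. In basal-like cells these were *Ltbp2* in T43 at 1.93 CPM (2 UMIs, the other TEBs at 0) and in N21 at 192 CPM (the other nipples at 126 to 131), *Ltbp3* in D51 at 140.4 CPM (64.3 to 82.4) and *Tgfb3* in D32 at 44.0 CPM (2.01 to 12.9). In fibroblast-like cells they were *Ltbp4* in D32 at 647 CPM (75.6 to 138), *Tgfb2* in D52 at 151 CPM (0 to 18.1), *Tgfb3* in T42 at 40.3 CPM (21.2 to 25.7) and in D61 at 49.1 CPM (0 to 6.30), and, in N23, *Tgfbr1* at 64.1 CPM (32.05 to 35.8) and *Tgfbr3* at 44.3 CPM (109 to 120.3). The last were *Tgfbr1* in myeloid-like cells of T33 at 271 CPM (24.3 to 83.0) and *Tgfbr2* in ER- luminal-like cells of T42 at 33.5 CPM (17.6 to 20.1) and D32 at 105 CPM (22.8 to 40.3).

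In 8 tests a member changed with location differently in 2 classes. For the basal-like and ER+ luminal-like classes the adjusted p of the class-by-location term was 2.5e-05 for *Ltbp1*, 0.0011 for *Tgfbr1*, 0.023 for *Ltbp2* and 0.038 for *Tgfbr2*. Between basal-like and fibroblast-like cells it was 5.8e-05 for *Ltbp1*, 0.0049 for *Tgfbr1* and 0.036 for *Ltbp4*, and for basal-like against ER- luminal-like classes 5.3e-04 for *Ltbp2*.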

How the results depend on the processing

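The number of members called across locations was 6 in basal-like cells, 3 with cells thinned to 5000 UMIs (where only 3 members could be tested) and 1 without regression before clustering, where no nipple basal-like class was left and duct was compared with TEB only. Leaving out 1 fragment gave 4 to 6. In ER+ luminal-like cells 2 became 0 with thinned cells and 1 with classes from marker lists, and DESeq2 called 3, with *Tgfbr2* added (1 to 3 over left-out fragments). In ER- luminal-like cells 0 became 1 without a count filter and with DESeq2 (0 to 1 over left-out fragments). In fibroblast-like cells 1 became 2 with thinned cells, with *Ltbp3* added (1 to 2 over left-out fragments). The number of class-by-location calls went from 8 to 4 with thinned cells, 4 with at least 10 cells per sum and 3 without regression (both *Ltbp2* calls and *Tgfb3*, which is not one of the 8), with 6 to 8 over left-out fragments, and DESeq2 was not run for them. The cause of these changes, beyond the classes and members lost, was not tested. Sums of at least 10 cells left no myeloid-like comparison.

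*Ltbp2* of basal-like cells passed under every alternative run. The *Ltbp1* call of ER+ luminal-like cells was lost with thinned cells (adjusted p = 0.11), and *Tgfbr3* of basal-like cells with at least 10 cells per sum (0.082) or marker-list classes (0.066). Of 529 single values under the alternatives other than leaving out a fragment, 483 kept their direction and side of the threshold, 40 no longer passed, 4 newly passed and 2 counts moved. Of 822 with a fragment left out, these were 761, 57 and 4. No direction reversed.

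With the replicate block for duct and TEB, *Ltbp2* gave 9.18 in basal-like cells (adjusted p = 2.7e-09), *Ltbp4* 1.96 (0.41) and *Tgfb3* of ER+ luminal-like cells 2.99 (0.086). The members called went from 2 to 1 in basal-like and from 1 to 0 in ER+ luminal-like cells. Only numbers 31 and 32 were shared, with correlations of −0.014 to 0.041, so they were not taken as pairs. Depth limits the members under a few CPM, mainly *Tgfb1*, for which no difference was detectable.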
